A study of Drosophila melanogaster with 3 samples.

Results

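Terminal inverted repeat (TIR) transposons other than *FB* were described from the transposable element (TE) insertion calls of the *Drosophila melanogaster* strain ORw1118. Members were chosen by name alone, as every call assigned to *pogo*, *hobo*, _1360_, *S-element*, *hopper*, *Bari1*, *Tc1*, *HB* or *P-element*, with no minimum of read support. The rule found 217 of the 1702 calls in the list (12.8%, exact 95% binomial interval 11.2 to 14.4%), spread over 8 of the 89 families. *pogo* had 76 calls, *hobo* 39, _1360_ 36, *S-element* 30, *hopper* 26, *Bari1* 6, *Tc1* 2 and *HB* 2, while *P-element* had 0 rows in either list of calls. The other 1485 calls, *FB* (209) and *roo* (302) among them, stand beside these families below.

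The flies were Oregon-R carrying the *white* allele w1118, raised at 25°C, the strain in which the study followed contacts between heterochromatin and euchromatic TEs. Genomic DNA came from adult females in 3 biological replicates of 100 flies each, and there was no other genotype or treatment. The authors pooled the replicates before they called TEs, so each call has 1 value and no spread between replicates can be given. A pool of flies does not tell whether an insertion was carried by all flies or by some, nor whether it was homozygous.

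TIR transposons move as DNA. A transposase, encoded by the complete copies, binds the inverted repeats at both ends, cuts the element out and joins it to a new site, where a short target sequence becomes duplicated on both sides. Shortened copies that keep their ends can be moved by the transposase of another copy, and several families in flies consist largely of such copies. *pogo*, *S-element*, *Bari1*, *Tc1* and *HB* are relatives of the Tc1/mariner transposons, *hobo* belongs to the hAT group, and _1360_ is related to the *P-element*, the transposon known for hybrid dysgenesis. The inverted repeats also mean that both ends of an element carry the same letters on opposite strands.

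A call is an interval of the reference genome (Release 6) in which reads were found that run from the chromosome into a TE. It is described by the supporting reads, which are split reads joining chromosome and TE on either side, by the reference reads, which cover the site without the TE and were normalized by the authors, and by the coverage ratio, which is the number of supporting reads over the reference reads plus 1. The study asked for a ratio of at least 3 and for calls that overlapped between its ways of preparing the reads. It then removed TEs shared with its wildtype strains, or lying where those strains shared enrichment of H3K9me2, a heterochromatin mark. The calls at 3 or more below are therefore not its final set of euchromatic TEs. The list of reads treated as single-end gives the values below unless merged reads, from which the authors made another list of 1487 calls, are named. Intervals cover counting error only, and differences between families are descriptions over loci of 1 pooled library, without a test.

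Pooled, the TIR families had a higher median of supporting reads than the rest of the list, with intervals of the median that overlap. By median this held for *hopper*, *pogo*, the 2 *Tc1* calls and the 2 *HB* calls (38.5 supporting reads), but not for every family. The 217 TIR calls had a median of 44 supporting reads (quartiles 19 to 80), against 35 (13 to 69) for the 1485 other calls. The exact 95% intervals of these medians were 37 to 55 and 32 to 39. In merged reads the medians were 29 (interval 23 to 36) and 26 (23 to 27). Among the other calls, the median was 19 (15 to 21) in *FB* and 40 (31 to 48) in *roo*. By family the median was 69.5 in *hopper*, 58 in *pogo*, 34.5 in *Bari1*, 34 in *S-element*, 27.5 in _1360_ and 17 in *hobo*, so 4 of these 6 families lay below the other calls. Their median coverage ratio was 1.3 (exact 95% interval of the median 1.0 to 1.5), against 0.8 (0.8 to 1.0), and 1.0 without *pogo*. In merged reads it was 1.4 (1.1 to 1.6), against 1.1 (1.0 to 1.2), with intervals that overlap. Reference reads were similar, with medians of 36.0 at TIR calls and 38.8 at other calls. Of the TIR calls, 45 (20.7%, 15.6 to 26.8%) had a coverage ratio of at least 3, beside 16.4% of all 1702 calls and 234 of the 1485 others (15.8%, 13.9 to 17.7%). The share in the TIR families thus lay above that of the whole list by a few percentage points, with intervals that overlap. In merged reads the share was 42 of 201 (20.9%), beside 18.6% of all calls there.

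Among the 6 families with more than 2 calls, *hopper* and *pogo* had the highest median coverage ratios and *hobo* the lowest. The median coverage ratio was 2.0 in *hopper* (interval of the median 1.0 to 3.2), 1.65 in *pogo* (1.2 to 2.0), 0.85 in *S-element* (0.5 to 2.2), 0.8 in _1360_ (0.4 to 1.6), 0.75 in *Bari1* (0.2 to 1.7) and 0.4 in *hobo* (0.2 to 1.0). Each of these intervals overlaps that of its neighbour in the order, and only *pogo* and *hobo* have intervals that stay apart. In merged reads this separation was lost, with medians of 1.8 in *pogo* (1.4 to 2.1), 1.6 in *hopper* (0.7 to 2.7), 1.2 in *S-element* (0.4 to 2.4), 0.85 in *Bari1* (0.2 to 2.4), and 0.8 in both _1360_ (0.4 to 1.7) and *hobo* (0.3 to 1.5). The 2 *Tc1* calls had a median of 2.35 and the 2 *HB* calls one of 0.8, too few to be placed in the order. *FB*, a large TIR family outside the rule, had a median of 0.4 (0.3 to 0.5) and the LTR retrotransposon *roo* one of 1.0 (0.8 to 1.3). A ratio of at least 3 was reached by 9 of 26 *hopper* calls (34.6%, 17.2 to 55.7%), 8 of 30 *S-element* calls (26.7%, 12.3 to 45.9%), 17 of 76 *pogo* calls (22.4%, 13.6 to 33.4%), 6 of 36 _1360_ calls (16.7%, 6.37 to 32.8%) and 5 of 39 *hobo* calls (12.8%, 4.30 to 27.4%). With these numbers of calls the intervals of all 5 families overlap.

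**Figure D1:**
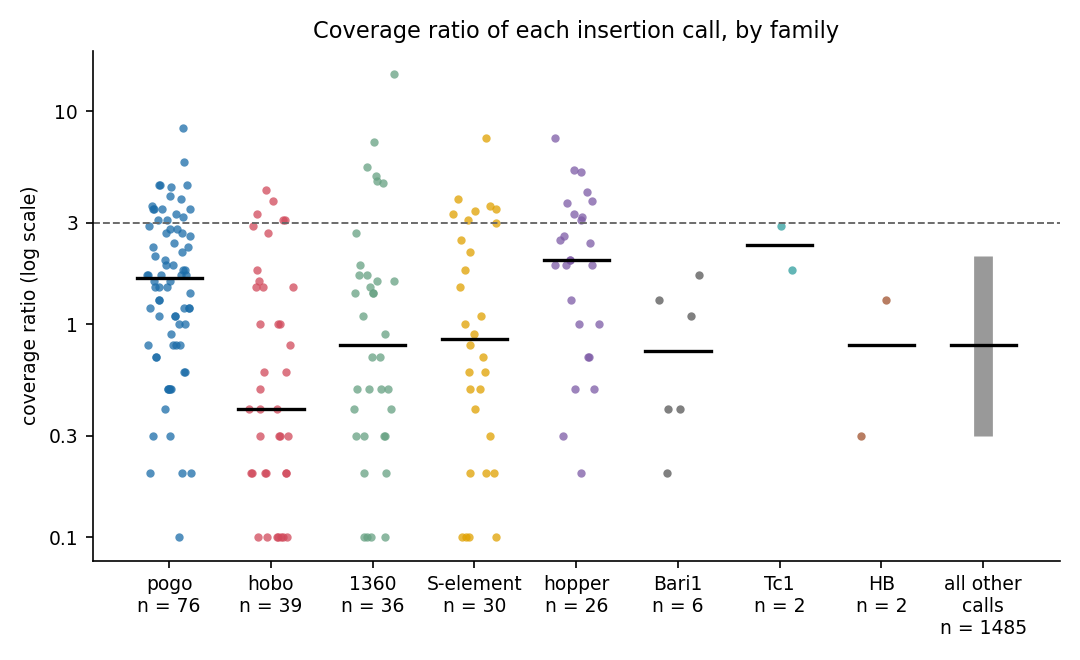
Coverage ratio (log scale) of each TIR call by family, with black lines for medians and a dashed line at a ratio of 3. The grey bar spans the quartiles of the 1485 other calls. The *hopper* median of 2.0 and the *pogo* median of 1.65 lie above the median of 0.8 of the other calls, and the *hobo* median of 0.4 below it.

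Low read support was common in *hobo* and absent from *hopper*. Fewer than 10 supporting reads were behind 11 of 39 *hobo* calls (28.2%, 15 to 44.9%) and 0 of 26 *hopper* calls (0 to 13.2%), beside 4 of 76 for *pogo*, 5 of 36 for _1360_ and 4 of 30 for *S-element*. Among the other calls this share was 266 of 1485 (17.9%). In merged reads, which hold fewer reads, it was 11 of 31 for *hobo*, 11 of 33 for _1360_ and 2 of 26 for *hopper*. *hobo* calls fell into 24 with a ratio under 1, 10 between 1 and 3 and 5 at 3 or more, whereas *pogo* had 38 of its 76 calls in the middle class and 21 under 1. In *S-element* the middle class held 6 calls of 30, and 16 calls lay under 1. In merged reads it held 8 of 28 *S-element* calls, with 7 at 3 or more and 13 under 1.

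Supporting and reference reads ran against each other within families. The 45 TIR calls at a ratio of at least 3 had medians of 108 supporting and 28.8 reference reads, the 82 calls from 1 to under 3 had 58.5 and 35.2, and the 90 calls under 1 had 15.5 and 44.7. Both quantities enter the ratio, so this order is in part built in. Reference reads stayed above 0 at all TIR calls but 1, also where the ratio was high. Over 24 of the 217 TIR calls the exact 95% Poisson interval of the supporting reads kept the whole ratio at 3 or more, namely 8 of *pogo*, 6 of _1360_, 6 of *hopper*, 2 of *hobo* and 2 of *S-element*, and over 34 calls the interval reached to both sides of 3. All 6 _1360_ calls that reached 3 were thus clear of it by the counting error of supporting reads, but only 2 of the 8 *S-element* calls. The counting error of reference reads is not included, and 1 of the 6 is the call on Y with 0 reference reads. Among the other calls, 165 of 1485 had an interval wholly at 3 or more, and among all calls 189 of 1702. These shares are close to the 24 of 217 in the TIR families, which by this measure did not lie above the rest.

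**Figure D2:**
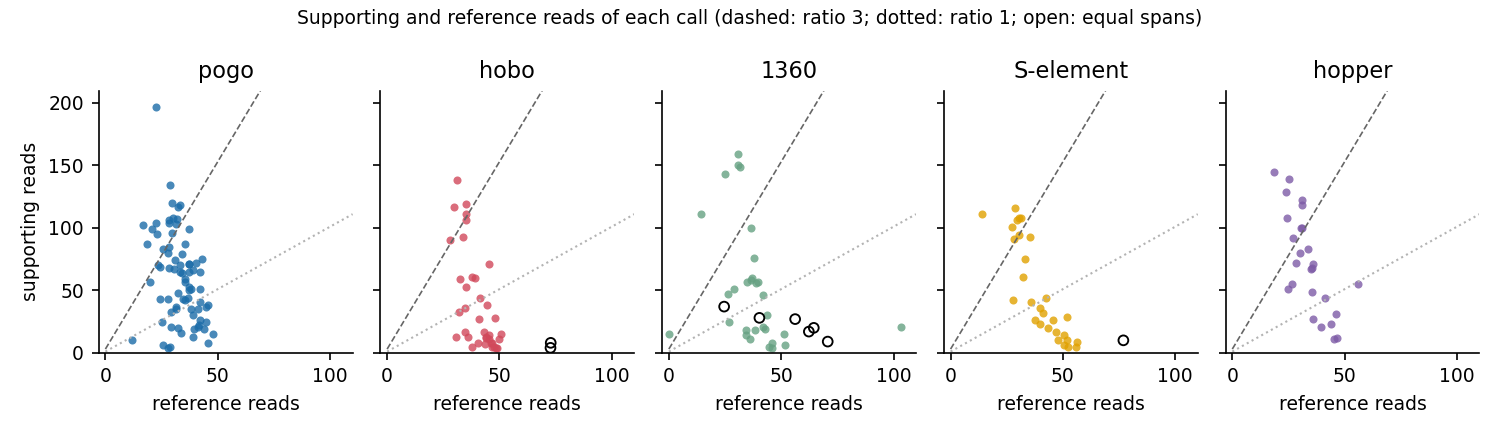
Supporting reads (count, vertical axis) against reference reads (normalized by the authors, horizontal axis) for the calls of 5 families, with lines at coverage ratios of 3 (dashed) and 1 (dotted). Open circles are calls whose TE positions span exactly the width of the interval, and 6 of them are _1360_. The *pogo* call in *CrebA* stands alone at 197 supporting reads.

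*pogo* held the call with most supporting reads of the entire list. It lies on 3L between 15545596 and 15546155 in an intron of *CrebA*, a bZIP transcription factor gene known for its control of secretory pathway genes. It had 197 supporting reads, 80 on the first side and 117 on the second, with 22.5 reference reads. The coverage ratio of 8.4 (7.25 to 9.64) was the highest of a TIR call outside the Y chromosome. Merged reads gave 8.6 from 109 supporting reads. Its interval of 559 bp was the widest of the *pogo* intervals, whose median was 232 bp. Both sides were joined to the same end of *pogo*, at positions 2088 and 2086, while 74 of 76 *pogo* calls joined opposite ends. More than 1 insertion within this interval was not tested.

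The next *pogo* calls by coverage ratio were well below this one. On 3R between 18850869 and 18851139, beside CG31226 and the non-coding CR45633, a *pogo* had 102 supporting and 16.6 reference reads and a ratio of 5.8 (4.73 to 7.04). On 2R between 8861984 and 8862213, in an intron of *RyR*, the gene of the ryanodine receptor that releases calcium from internal stores, a *pogo* had 99 and 20.8 reads and a ratio of 4.5 (3.69 to 5.53). Another 2R *pogo*, between 3009360 and 3009594 and not near genes, had 134 and 28.8 reads and 4.5 (3.77 to 5.33), as had one on X in an intron of CG32683 between 10436737 and 10436988, with 87 and 18.4 reads (3.59 to 5.53). The intervals of these calls overlap, so their order among themselves is not settled. Merged reads gave 8.2, 6.3, 3.5 and 2.6 for the 4 calls in this order, so the lists differed by as much as the calls did, and in merged reads the X call was under 3.

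Only 2 *pogo* calls with a ratio of at least 3 lay in an exon or UTR. One was on the small chromosome 4 between 1038373 and 1038603 in an exon of *CaMKII*, the calcium/calmodulin-dependent protein kinase II of neurons and other cells, with 103 supporting and 31.3 reference reads and a ratio of 3.2 (2.60 to 3.87). The other was on 3L, from 14748111 to 14748343, where the annotation gives the 3′ UTR of CG42507, with 120 and 29.5 reads and a ratio of 3.9 (3.26 to 4.70). Merged reads gave 4.3 and 3.6. Both calls had their reads shared nearly evenly between the sides, 48 and 55 in *CaMKII* and 54 and 66 in CG42507.

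At the low end of *pogo*, with at least 10 supporting reads, were calls in introns of *dpr19* on 2L and *Sema-5c* on 3L, both genes of cell surface proteins. The *dpr19* call had 15 supporting and 47.7 reference reads and a ratio of 0.3 (0.172 to 0.508), and the *Sema-5c* call had 13 and 39.2 reads and a ratio of 0.3 (0.172 to 0.553). A *pogo* on 2L between 14756563 and 14756766, not near genes, had 19 and 43.8 reads and 0.4. These sites had more reference than supporting reads by a factor of at least 2. Reference reads at *pogo* calls ranged between 11.8 and 47.7.

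Of the TIR families described here, *hopper* had the highest share of calls past 3, and 6 of those 9 were intergenic. The highest lay on 2L between 17574281 and 17574664, an interval that holds the start of the microRNA gene *mir-287*. It had 145 supporting reads, 105 on the first and 40 on the second side, and 18.4 reference reads. Its ratio was 7.5 (6.31 to 8.79), or 6.1 in merged reads. Like the *pogo* in *CrebA*, it was the widest interval of its family, at 383 bp against a median of 232.5 bp.

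Other *hopper* calls reached ratios of 5.3 on 3L between 12721625 and 12721863 (4.44 to 6.24, 139 supporting reads) and 5.2 on X between 20083381 and 20083613 (4.34 to 6.18, 129 supporting reads), neither near genes. On X between 18193644 and 18193888, in an intron of *Frq2*, which encodes a calcium sensor of the Frequenin type active at synapses, the ratio was 4.2 (3.47 to 5.11). On 3R between 28101505 and 28101743 it was 3.8 (3.16 to 4.54). Both *hopper* calls on X were thus past 3, and 7 of the 24 calls on other chromosomes. The lowest were in introns of *Ih*, the gene of a hyperpolarization-activated channel (11 supporting reads, ratio 0.2), of *Nlg2*, a neuroligin of synaptic adhesion (12 reads, 0.3), and of *aret*, which encodes the RNA-binding protein Bruno (23 reads, 0.5), all on 2L or 2R.

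Of the *hopper* calls, 6 shared their site with a call of the related name *hopper2*, a family outside the rule. The list held 6 *hopper2* calls, and each lay wholly inside the interval of a *hopper* call, a pattern singled out after the values were seen. They were in introns of *Vmat*, *dpr6*, CG42337 and CG14459, in the 3′ UTR of CG2023, and on 3L between 7314589 and 7314830 away from genes. In CG14459 the *hopper* interval ran between 22635611 and 22635832 with 72 supporting reads and a ratio of 2.5, and the *hopper2* interval between 22635749 and 22635812 with 44 reads and 1.2. In *Vmat*, the vesicular monoamine transporter gene, *hopper* had 67 reads and a ratio of 1.9 and *hopper2* 16 reads and 0.3. At all 6 sites *hopper* had the larger number of reads and the higher ratio. The *hopper2* reads mapped between positions 1498 and 1567 of *hopper2* at every site, that is to a single stretch. Whether a site holds 1 element or 2 was not tested, and the *hopper* calls at these sites, whose ratios ran between 0.7 and 2.6, were counted as *hopper* throughout.

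Of the 30 *S-element* calls, 8 had a ratio of at least 3, 6 one from 1 to under 3 and 16 one under 1. Their highest ratio was on X between 20672599 and 20672839 in an intron of *hydra*, a gene known for a role in male fertility, with 111 supporting and 13.8 reference reads. Its ratio was 7.5 (6.17 to 9.03). Merged reads took it to 10.4, the highest of the TIR calls in that list. The next were at 3.9 on 2R between 5674571 and 5674803 (3.24 to 4.70), 3.6 on 2L near CG40042 (2.9 to 4.32) and 3.5 on X in an intron of *HDAC4*, a class II histone deacetylase gene (2.84 to 4.19). A call at 3.4 on 3L between 17009111 and 17009345 in an intron of CG3764 overlapped an *FB* call with 87 supporting reads, and merged reads took it to 2.6.

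The 3′ UTR of CG4558 on X held the only *S-element* past 3 in an exon or UTR, between 6851808 and 6852033, with 108 supporting and 31.5 reference reads and a ratio of 3.3 (2.73 to 4.01). It had 52 reads on one side and 56 on the other, and merged reads gave 3.5. *S-element* calls with the lowest ratios were on 3L between 9383353 and 9383433 (10 supporting against 76.9 reference reads, ratio 0.1), in an intron of *Snap25*, a SNARE gene of synaptic vesicle fusion (10 and 51.9 reads, 0.2), and in an intron of CG32944 (10 and 47.8 reads, 0.2). The calls in *Snap25* and CG32944 had no counterpart in merged reads.

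_1360_ had the highest ratio of all TIR calls, on the Y chromosome, in DNA of females. Between 311341 and 311463 of Y it had 15 supporting reads and 0 reference reads, so the ratio of 15 (8.40 to 24.7) is the number of supporting reads itself. The list held 4 calls on Y and 3 calls with 0 reference reads. In merged reads the same call had 9 supporting reads and a ratio of 9.0. Since females have no Y chromosome, where these reads come from was not tested, and no reference read stands behind this ratio.

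The other _1360_ calls past 3 had between 111 and 159 supporting reads. They lay on X between 21204898 and 21205158 (111 supporting and 14.5 reference reads, ratio 7.2, interval 5.89 to 8.62), on 2R in an intron of CG30440 (143 and 24.8 reads, 5.5, 4.67 to 6.53), on 3L between 3254887 and 3255119 near the non-coding CR43626 (159 and 30.7 reads, 5.0, 4.27 to 5.86), and on 2L between 23068773 and 23069008 over the start of *Spf45* or CR43242, *Spf45* being a splicing factor gene (150 and 30.7 reads, 4.7, 4.0 to 5.55). The call on X overlapped an *mdg1* call with 138 supporting reads and a ratio of 11.3. A further one, in an intron of *d4* on 2R, had 149 reads and 4.6 and was named after its values were seen. Between these 6 calls and the rest of the family was a gap: the next _1360_ ratio was 2.7, in an intron of *Pxd* on 3R, likewise named after its value was seen.

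At the low end, _1360_ had calls of 0.3 on 2L near *sip1* (11 supporting reads), 0.3 in an intron of CG9380 on 2R (20) and 0.2 on 3L between 17870769 and 17870845 (21). The last had 103.3 reference reads, the most at a TIR call, and was not found in merged reads.

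*hobo* calls past 3 were few and their ratios close together. On 3L between 22347018 and 22347245, in an intron of *Ten-m*, a teneurin gene of synaptic partner matching, *hobo* had 138 supporting and 31.2 reference reads and a ratio of 4.3 (3.60 to 5.06). On 3R between 29357060 and 29357287 near CR45547 it was 3.8 (3.15 to 4.57), on 3L between 9508604 and 9508832 in an exon of CG3408 it was 3.3 (2.72 to 3.93), on X in an intron of *flw*, a protein phosphatase 1 gene, 3.1 (2.50 to 3.83), and on 3R in an intron of CG6154 3.1 (2.54 to 3.71). Merged reads gave 4.5, 4.7, 3.0, 3.0 and 2.7 in this order. The *flw* call was uneven, with 26 reads on the first side and 64 on the second.

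Far more typical of *hobo* were calls such as those in introns of *lilli*, a transcription factor gene (15 supporting and 50.6 reference reads, ratio 0.3), *rau* (11 and 49.7 reads, 0.2) and CG42260 (11 and 45.5 reads, 0.2). The 24 *hobo* calls under 1 had a median of 11 supporting reads and of 45.4 reference reads. Of the 39 *hobo* calls, 9 had no counterpart in merged reads, the largest number among the TIR families named by the rule, and those 9 had at most 13 supporting reads.

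The smaller families had no call at 3 or more. The 6 *Bari1* calls had ratios between 0.2 and 1.7, the highest on 3R between 12866759 and 12866991 (53 supporting reads). Of these, 4 were in introns, of *kuz*, an ADAM metalloprotease gene of Notch signalling (0.4), *pdm3*, a POU domain transcription factor gene (1.1), CG34357 (1.3) and *Dscam3*, a gene of the immunoglobulin superfamily (0.4). The *Tc1* calls were at 2.9 on 3L (104 supporting reads) and 1.8 on 2R (70 reads), and in merged reads the 3L call reached 3.1. The *HB* calls were at 1.3 on 2R between 5738945 and 5739018 (55 reads) and 0.3 in an intron of *heph*, which encodes a polypyrimidine tract binding protein (22 reads). Neither *HB* call was found in merged reads, and the 2R call had the most supporting reads of the 22 unshared TIR calls.

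Each call also gives the position within the TE to which the reads of either side mapped. With reads treated as single-end, these positions separated the families more sharply than read support did. A position was taken as an end where it was within 150 bp of the start of the TE or of the highest position seen for the family, which was 2100 for *pogo*, 2936 for *hobo*, 3386 for _1360_, 1713 for *S-element* and 1414 for *hopper*. In *pogo*, 74 of 76 calls (97.4%, 90.8 to 99.7%) joined the chromosome at opposite ends of the element, and in *hobo* 36 of 39 (92.3%, 79.1 to 98.4%). All 6 *Bari1* calls did so too. In _1360_ this was 20 of 36 (55.6%, 38.1 to 72.1%), in *S-element* 13 of 30 (43.3%, 25.5 to 62.6%) and in *hopper* 11 of 26 (42.3%, 23.4 to 63.1%). Among all other calls 269 of 1485 (18.1%) joined opposite ends and 764 (51.5%) had a position away from both ends, against 8 of 217 TIR calls (3.69%). For *hopper* the separation was lost in merged reads, with opposite ends in 80.77% of calls (60.65 to 93.45%). This overlaps *hobo* (90.32%, 74.25 to 97.96%) and *pogo* (95.89%, 88.46 to 99.14%) there.

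Calls that did not join opposite ends mostly gave the same end on both sides. All 17 such *S-element* calls gave the high end. The *S-element* in CG3764, for example, was joined at position 1701 on both sides. In *hopper* 11 calls gave the low end on both sides and 4 the high end. In _1360_ the same-end calls were 6 at the low and 5 at the high end, and 5 more had a position away from the ends. *FB* gave the low end on both sides in 205 of 209 calls (98.1%).

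The end assigned to a side depended on how the reads had been prepared in 3 of the 5 families. In merged reads, 21 of 26 *hopper* calls joined opposite ends instead of 11, and 13 of the 15 same-end *hopper* calls changed to opposite ends, while 3 changed the other way. In *S-element*, 8 of the 27 shared calls changed from the same end to opposite ends, 8 changed the other way and only 3 joined opposite ends in both lists. In _1360_ 3 changed to opposite ends and 5 the other way. In *pogo*, 69 of 72 shared calls joined opposite ends in both lists, and in *hobo* 28 of 30. For *hopper*, _1360_ and *S-element*, the end given to a side thus differed between the lists for many of the same calls, and the cause was not tested.

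**Figure D3:**
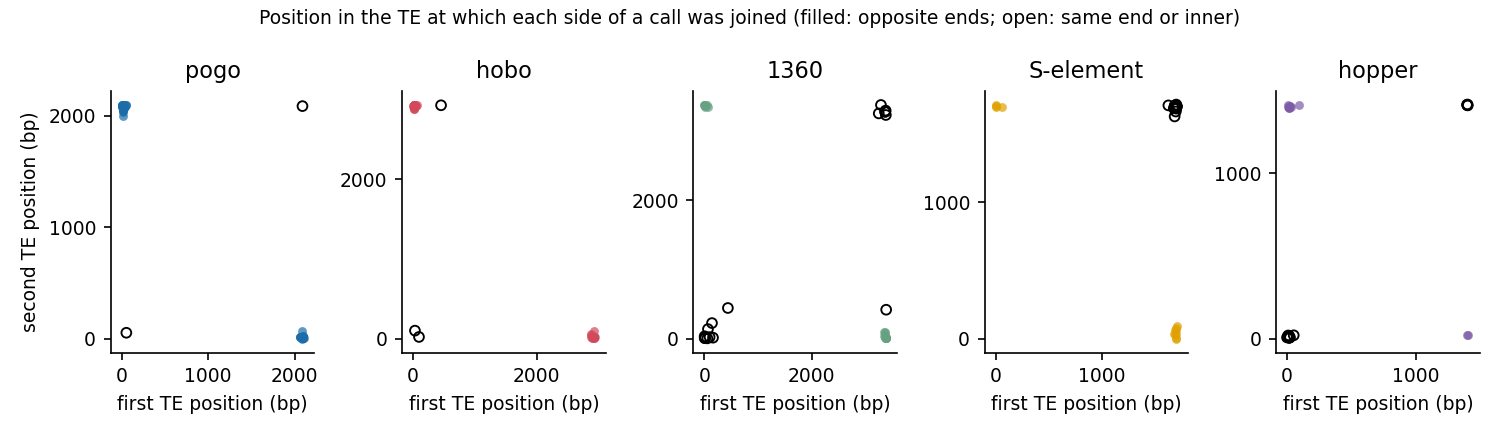
Position in the TE (bp from its start) to which the reads of the second side mapped, against that of the first side, for 5 families, with 1 point per call. Filled points join opposite ends and lie in the upper left or lower right corner, and open points give the same end or a position away from the ends. *pogo* and *hobo* fill the corners of opposite ends, and *S-element* has its 17 open points at the high end.

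Where opposite ends were joined, the order of the ends can give the orientation of the element on the chromosome. This requires that the first TE position belongs to the first side of the interval, which the lists do not state. It also requires that each side was given the right end. In *hopper*, _1360_ and *S-element* that end often differed between the lists. The 128 TIR calls that joined opposite ends in both lists had the same order in all 128. Of these, 69 were *pogo*, 28 *hobo*, 13 _1360_, 8 *hopper* and 3 *S-element* calls. Orientation was close to even in *pogo*, with 40 of 74 calls low end first (54.1%), and in *hobo*, with 19 of 36 (52.8%). All 6 *Bari1* calls had the high end first (0 of 6 low end first), in both lists. In *hopper* 9 of 11 had the low end first and in *S-element* 4 of 13, but merged reads gave 13 of 21 and 5 of 12, so these shares rest on which calls of the family happened to join opposite ends in a list.

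Against the strand of their host genes, TIR elements showed no clear side. Of 96 calls in a gene of known strand with opposite ends, 49 (51.0%, 40.6 to 61.4%) ran in the direction of the gene, beside 76 of 157 other calls (48.4%). It was 20 of 37 in *pogo*, 15 of 24 in *hobo*, 6 of 13 in *S-element*, 3 of 6 in *hopper* and 3 of 12 in _1360_. The counts of *S-element*, *hopper* and _1360_ rest on ends that often differed between the lists. The interval for _1360_, 5.49 to 57.2%, takes in the values of *pogo*, *S-element* and *hopper* but not that of *hobo* (62.5%, 40.6 to 81.2%), and the intervals of _1360_ and *hobo* overlap.

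A small group of calls stood apart by geometry. In 12 of 217 TIR calls (5.53%, 2.89 to 9.46%) the distance between the TE positions equalled the width of the genomic interval to the base, so the interval spanned as many bases of the TE as of the chromosome. These were 6 _1360_, 2 *hobo*, 2 *HB*, 1 *S-element* and 1 *Tc1* call, with no *pogo*, *hopper* or *Bari1* among them. Their intervals measured between 68 and 110 bp, against a median of 229 bp for the other 205 TIR calls. Reference reads had a median of 63.4 at the 12 and 35.5 at the others, and the coverage ratio a median of 0.3 and a highest value of 1.8 at the 12, against a median of 1.3 at the others. They were 12 of the 18 TIR intervals under 130 bp. Among the other families such calls were more frequent, 156 of 1485 (10.5%, 8.99 to 12.2%). No TIR call with a ratio of at least 3 belonged to this group, and what gives these calls their shape was not tested.

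By chromosome, TIR calls were found on all arms. Of the 217, 55 were on 3L (25.4%), 53 on 2R (24.4%), 46 on 3R (21.2%), 34 on 2L (15.7%), 24 on X (11.1%), 4 on chromosome 4 (1.84%) and 1 on Y. The other calls had 22.5% on 3L, 19.1% on 2R, 23.6% on 3R, 16.8% on 2L and 17.0% on X. The X share was the widest gap, 24 of 217 TIR calls (7.22 to 16%) against 253 of 1485 other calls (15.2 to 19.1%), with intervals that overlap slightly. It was 7 of 76 in *pogo* (9.21%), 2 of 26 in *hopper* (7.69%), 3 of 36 in _1360_ (8.33%), 7 of 39 in *hobo* (17.9%) and 5 of 30 in *S-element* (16.7%). *FB* had 57 of 209 calls on X (27.3%, 21.4 to 33.9%), above the 16.3% of all calls, as were *hobo* and *S-element* by a little, whereas *pogo*, *hopper* and _1360_ were below it.

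Calls on X more often had a high coverage ratio. A ratio of at least 3 was found for 10 of 24 TIR calls on X (41.7%, 22.1 to 63.4%) and for 35 of 193 on other chromosomes (18.1%, 13.0 to 24.3%), with intervals that overlap slightly. The other calls showed the same order, with 91 of 253 on X (36.0%, 30.1 to 42.2%) and 143 of 1232 elsewhere (11.6%, 9.87 to 13.5%). Among TIR calls with a ratio of at least 3, X thus held 10 of 45 (22.2%, 11.2 to 37.1%), against 91 of 234 (38.9%, 32.6 to 45.5%) among the other calls. Chromosome 4 held 1 TIR call past 3, the *pogo* in *CaMKII*, and no other call past 3.

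Most TIR calls lay in genes, chiefly in introns, and the families differed in how many did. By the authors' annotation, 138 of 217 TIR calls (63.6%, 56.8 to 70.0%) lay in a gene, against 975 of 1485 other calls (65.7%, 63.2 to 68.1%). Introns took 119 (54.8%), UTRs 13 (5.99%) and exons 6 (2.77%), beside 53.9%, 7.34% and 4.38% of the other calls. *S-element* had the highest share in genes, 26 of 30 (86.7%, 69.3 to 96.2%), followed by *hobo* with 29 of 39 (74.4%, 57.9 to 87.0%), *hopper* with 17 of 26 (65.4%, 44.3 to 82.8%), _1360_ with 20 of 36 (55.6%, 38.1 to 72.1%) and *pogo* with 41 of 76 (53.9%, 42.1 to 65.5%). Of these 5 families only *S-element* and *pogo* had intervals that do not overlap, and this was lost with RefSeq gene bodies, which held 26 of 30 *S-element* calls (86.7%, 69.3 to 96.2%) and 50 of 76 *pogo* calls (65.8%, 54.0 to 76.3%). With RefSeq _1360_ was lowest, at 23 of 36 (63.9%). *FB* was in genes in 197 of 209 calls (94.3%).

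**Figure D4:**
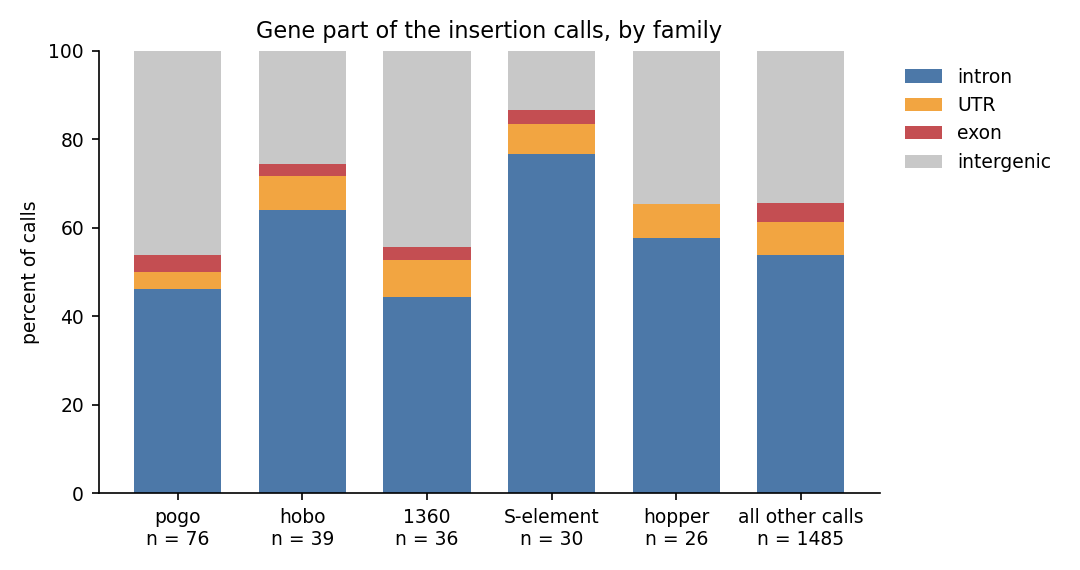
Percent of the calls of each family in introns, UTRs, exons and between genes, by the authors' annotation, with the other calls on the right. *S-element* has the smallest intergenic part, 13.3%, and *pogo* the largest, 46.1%.

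Genes were hit by calls of high and low coverage ratio alike. A ratio of at least 3 was found for 26 of 138 TIR calls in genes (18.8%, 12.7 to 26.4%) and for 19 of 79 between genes (24.1%, 15.1 to 35.0%), beside 14.5% and 18.2% of the other calls. The direction differed between families: in *pogo* it was 11 of 41 in genes and 6 of 35 between genes, in *hopper* 3 of 17 and 6 of 9. Of the 19 TIR calls in exons and UTRs, 4 reached 3, namely the *pogo* calls in *CaMKII* and CG42507, the *hobo* in CG3408 and the *S-element* in CG4558. *hopper* had 0 calls in an exon.

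Most host genes of TIR calls had 1 TIR call, a share that was not computed for the other calls. The 138 calls in genes named 144 different genes, since some intervals lie in overlapping genes, and 137 of these genes had 1 TIR call. *bru-3*, which encodes an RNA-binding protein of the Bruno family, had 3 *hobo* calls in its introns over 120.4 kb, with 13, 17 and 5 supporting reads and ratios of 0.4, 0.5 and 0.1, among 7 calls of any family. *Ten-m* had the *hobo* of ratio 4.3 and another *hobo* 20.2 kb away with 4 reads and 0.1. These genes are long, and 4 of the 5 *hobo* calls in them had at most 17 reads.

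The other genes with more than 1 TIR call held *S-element*, *hopper*, _1360_ or *pogo*. *par-1*, a kinase gene of cell polarity, had *S-element* calls of 5 and 14 supporting reads (ratios 0.1 and 0.3) 3.64 kb apart, the first also inside *mei-W68*, the gene of the nuclease that makes meiotic double strand breaks. CG14459 had *hopper* calls of 21 and 72 reads (0.5 and 2.5). *Hr46*, a nuclear receptor gene of the ecdysone response, and CG12912, which overlaps it, shared a *pogo* in their 3′ UTRs (21 reads, 0.5) and an *S-element* in their introns (42 reads, 1.5). The 3′ UTR of *Zip102B* on chromosome 4, a gene of the ZIP zinc transporter family, had _1360_ calls of 17 and 9 reads (0.3 and 0.1) 0.45 kb apart. Both *Zip102B* calls belonged to the 12 in which TE and interval spans were equal, with 62.3 and 70.7 reference reads.

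Of the TIR families described here, *pogo* was most often found at the start of a gene. Within 500 bp of the start of a gene named for the call were 14 of 76 *pogo* calls (18.4%, 10.4 to 29.0%), against 10 of the other 141 TIR calls and 131 of 1485 other calls (8.82%, 7.43 to 10.4%). Over all TIR calls it was 24 of 217 (11.1%, 7.22 to 16%). Within 1 kb it was 18 of 76 for *pogo* (23.7%, 14.7 to 34.8%), against 177 of 1485 other calls (11.9%, 10.3 to 13.7%), and in merged reads 13 of 73 *pogo* calls lay within 500 bp. At 500 bp the lower bound for *pogo* and the upper bound for the other calls are both 10.4%.

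The *pogo* calls at gene starts, named here after their values were seen, were mostly intergenic and of middle ratio. The nearest was 6 bp from the start of *NijA*, a gene of the Ninjurin family of cell surface proteins, with 44 supporting reads and a ratio of 1.2. One was 89 bp from *wb*, which encodes a laminin alpha chain (20 reads, 0.6), another 32 bp from a start beside *Toll-9* and DNApol-alpha60 (79 reads, 2.2), and another 439 bp from the heat shock RNA gene *Hsromega* (50 reads, 1.3). Ratios of 3 or more were found for the call at CR45633 and CG31226 with 5.8, and for one on 3L between 11435625 and 11435858 over the start of CR44548 or CG6149 with 4.0 (3.22 to 4.86). In the other families the calls nearest to gene starts included the *hopper* at *mir-287*, the _1360_ at *Spf45* and a *hobo* in the 5′ UTR of *Shawl*, a potassium channel gene, with 13 reads and 0.3.

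Both lists held most of the TIR calls. Of the 217, 195 (89.9%, 85.0 to 93.5%) had a call of the same family over the same place in merged reads, against 1259 of 1485 other calls (84.8%, 82.8 to 86.6%). With at least 10 supporting reads it was 184 of 193 TIR calls (95.3%) and 1158 of 1219 others (95%). All 26 *hopper* calls and 72 of 76 *pogo* calls were shared, against 30 of 39 *hobo* calls. The lists rest on the same flies and reads, so a shared call is no independent observation.

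Coverage ratios followed each other across the lists, with exceptions by family. Of 45 TIR calls at 3 or more, 37 were so in both lists, and merged reads added 5. Of the other calls it was 210 of 234, a somewhat larger share, and merged reads added 24. In *hopper*, merged reads gave a lower ratio for 21 of 26 calls and a higher one for 5, whereas in *S-element* they gave a lower ratio for 5 of 27 and a higher one for 16. In *pogo* 33 were higher and 31 lower. The 6 _1360_ calls past 3 were past 3 in merged reads as well. Merged reads had 6 TIR calls of their own, with at most 23 supporting reads and a ratio of at most 0.9.

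**Figure D5:**
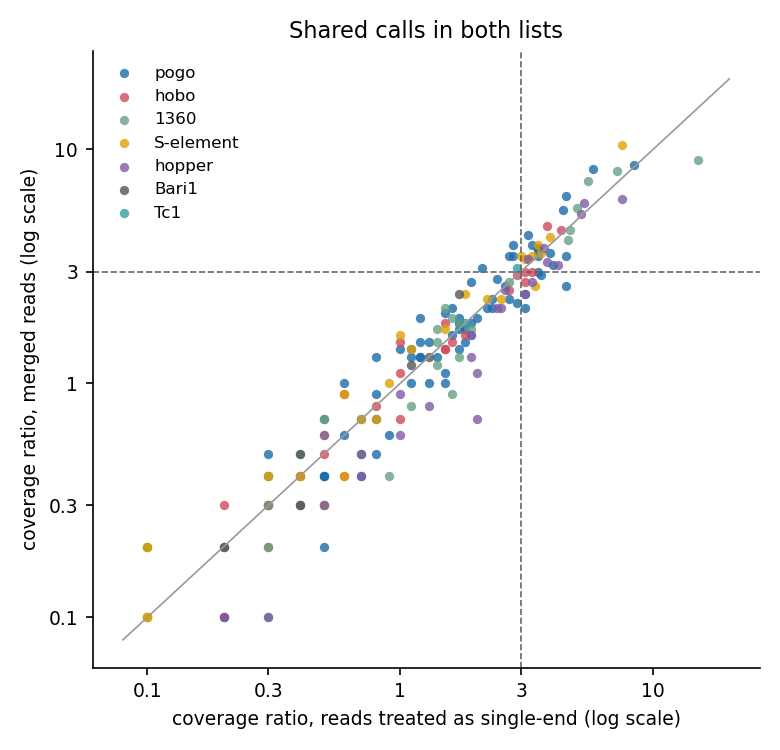
Coverage ratio in merged reads against that in reads treated as single-end (both on log scales) for the 195 shared TIR calls, coloured by family, with dashed lines at 3 and a line of equal values. Points follow the line, with most *hopper* points below it and most *S-element* points above it.

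Reads were well spread over the sides of TIR calls. The first side held a median fraction of 0.50 of the supporting reads (quartiles 0.420 to 0.60), against 0.50 (0.410 to 0.570) for the other calls. Of 160 TIR calls with at least 20 supporting reads, 5 had fewer than 5 on one side. The median was 0.450 in *hopper* (interval of the median 0.39 to 0.52) and 0.530 in *hobo* (0.48 to 0.60), with intervals that overlap. Merged reads gave medians of 0.46 and 0.50.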

How the data were processed

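The libraries held genomic DNA of ORw1118 females, as 3 biological replicates that the authors quality filtered with Trim Galore, pooled and searched for TE insertions with TIDAL at default settings, versions not given in the sources used here. Calls were made on read pairs taken as single-end reads and on overlapping pairs merged with SeqPrep and trimmed to 1 length, which gave 1702 and 1487 calls. Supporting reads were deposited as counts without normalization. Reference reads were deposited as a signal normalized by the authors in a way not stated, so depth per library is unknown here. Coverage ratios were deposited to 1 decimal, and the fraction of reads on the first side and the BLAT score, which was not used, were deposited beside it. Gene names and gene parts are the authors' annotation. RefSeq (Release 6) had 185 of the 186 gene names given for TIR calls, and 151 of 152 genes of calls inside genes spanned the interval.

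Gene starts were taken from RefSeq spans and the strand in the lists, only for genes that the lists name for a call. Calls were shared between lists if the same family overlapped by at least 1 bp. Intervals at 95% are exact Poisson (reads and ratios, from supporting reads alone), Clopper-Pearson (shares) or order statistics (medians), were tested on simulated data, and cover counting error only. Named calls are, per family, the 5 highest ratios and the 3 lowest with at least 10 supporting reads, those in exons or UTRs with a ratio of at least 3, and host genes with 2 or more TIR calls. Members, lists and rules were chosen with earlier results of these data known. Alternatives were merged reads, minimums of reads or ratio, chromosomes, families left out or added, RefSeq gene bodies and distances. No sequence is shown and AT content was not computed, since no genome sequence was used here. Python 3.11.15, numpy 2.4.6, pandas 2.3.3, scipy 1.17.1 and matplotlib 3.10.9 were used.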

Additional observations from a re-analysis of the deposited data

How the results depend on the processing

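Over all TIR calls and the 5 larger families, 63 alternatives were computed for the summary values, of which 48 stayed within the main value's interval or within 1.5 times the main count. A minimum coverage ratio of 1 left 15 *hobo*, 17 _1360_, 14 *S-element* and 127 TIR calls in all, and a minimum of 3 left 17 *pogo*, 5 *hobo*, 6 _1360_, 8 *S-element*, 9 *hopper* and 45 in all. With *FB* added, the median coverage ratio was 0.7. In merged reads the median of supporting reads was 29. The share past the minimum ratio was 31.3% at a minimum of 2 and 8.76% at a minimum of 4. The share of TIR calls on X was 22.2% at a ratio of at least 3. The alternatives keep or add calls, and merged reads hold fewer reads, but why the values differed was not tested. Of 57 named calls found in both lists, 41 had a merged ratio within the exact Poisson interval of the main value and 16 had not. Leaving out calls of equal spans, or Y and 4, and the end positions in merged reads were alternatives chosen after the data were seen. Each left the values over all TIR calls within their interval. For *hopper* alone, the share joining opposite ends moved from 42.3% (23.4 to 63.1%) to 80.8% in merged reads, outside that interval. Leaving out a replicate was not possible, since the authors pooled the replicates before calling. No paired analysis was possible because no comparison between groups of samples was made. The planned values on AT content were not run, since no genome sequence was used here. With 10 supporting reads or fewer, a ratio is uncertain by about its own size.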

Other observations

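Apart from *FB*, with 209 calls, the DNA transposon families outside the rule that were looked up were sparse in the list. *hopper2* had 6 calls, *Tc3* 4, *transib2* 4, *Tc1-2* 2, *transib1* 1 and *transib4* 1, or 18 in all. Beside 16.4% of all 1702 calls, none of the 18 had a coverage ratio of at least 3. Their ratios ran between 0.1 and 1.5, the highest for a *transib2* on 2R between 4511863 and 4511959 with 60 supporting reads, and 6 of the 18 were found in merged reads. All 4 *Tc3* calls had between 4 and 9 supporting reads and mapped to positions between 310 and 317 of *Tc3*, on both sides.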
